A study of Homo sapiens with 2 samples.

Results

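The ATF4 amino acid response genes described here are 35 genes that encode stress transcription factors and their feedback regulators, enzymes that make amino acids, and amino acid transporters. They were listed by name as known or proposed targets of the transcription factor ATF4, and 33 of the 35 were measured among the 18417 genes that the arrays could name. The cells were HT1080, a line from a human fibrosarcoma, grown in DMEM with fetal calf serum, L-glutamine and antibiotics. They were kept for 24 h either on wells coated with BSA, the control protein, or on wells coated with rLCC111, a recombinant fragment made of the coiled-coil region of laminin-111 chains. RNA from each coating went onto 1 GeneChip Human Gene 1.0 ST array, and a value is the log2 RMA level that the authors deposited, where a difference of 1 equals a 2-fold change. Because there was 1 array per coating, no difference has a replicate check, no p-value is given, and every difference below describes these 2 arrays.

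ATF4 is a basic leucine zipper factor of the integrated stress response. When amino acids run short or the endoplasmic reticulum is under stress, kinases phosphorylate the initiation factor eIF2, general translation slows, and the ATF4 mRNA is translated more. ATF4 then binds with C/EBP family partners to C/EBP-ATF response elements near genes for amino acid synthesis, amino acid uptake and transfer RNA charging, and to genes of its own feedback inhibitors. Standard DMEM supplies serine but not asparagine or proline. The culture medium also held serum, and no amino acid level in it is reported. An array reads mRNA only, so the amount of ATF4 protein and its translation were not measured.

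The promoters of the members are shown first, because ATF4 is known to act through a short DNA element, which was found in a minority of them. The C/EBP-ATF element was searched as TTGCATCA and, with 1 free letter, as TTNCATCA, on both strands (TGATGCAA and TGATGNAA on the other), and every match of the first is also a match of the second. The windows were the RefSeq promoter sequences of GRCh38.p14, from 250 bases before to 50 after a gene's start, and 28 of the 35 members had at least 1 window. TTNCATCA lay in a window of 7 of these 28 genes, or 25% of them, against 4.46% of 27305 genes. TTGCATCA lay in 4 of the 28, or 14.3%, against 1.08%. Counted by window, since a gene can have several, TTNCATCA was in 7 of 46 windows of the members (15.2%) and in 3.62% of all 35116 windows. A match is a description of letters and not a sign of binding, and a window without one says nothing about sites elsewhere in or near the gene.

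The 6 members with a match before the start, and CHAC1, a target outside the list that is described below, are given here as runs of 30 bases in the direction of the gene, with the match in capitals.
CEBPG: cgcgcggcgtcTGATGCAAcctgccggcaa
JDP2: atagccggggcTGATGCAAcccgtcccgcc
SLC1A5: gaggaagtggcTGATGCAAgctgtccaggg
SLC1A4: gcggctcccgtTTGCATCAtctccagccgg
ASNS: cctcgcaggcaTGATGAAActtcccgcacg
ATF3: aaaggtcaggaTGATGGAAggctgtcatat
CHAC1: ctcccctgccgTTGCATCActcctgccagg

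The CEBPG match begins 42 bases before the start of 1 of the gene's 2 windows, in the run chr19:33374060-33374089 on the plus strand. The JDP2 match begins 16 bases before the start of 1 of its 3 windows, at chr14:75427995-75428024 on the plus strand, and the SLC1A5 match 97 bases before the start of 1 of its 3 windows, at chr19:46784893-46784922 on the minus strand. In SLC1A4 the match begins 7 bases before the start of 1 of its 2 windows and ends at it, in the run chr2:64989381-64989410 on the plus strand. The ATF3 run lies at chr1:212565205-212565234 on the plus strand, with its match 191 bases before the start of 1 of 2 windows, and the CHAC1 run at chr15:40953251-40953280 on the plus strand, 209 bases before it. The seventh member with a match, SLC7A1, has it 7 bases after its start. In ASNS, the asparagine synthetase gene, the match begins 68 bases before the start of 1 of its 2 windows, in the run chr7:97872458-97872487 on the minus strand. The whole 250 bases before that start, chr7:97872409-97872658 on the minus strand, are shown as the longer context of a promoter known for its response to amino acid shortage, again with the match in capitals.
ASNS promoter: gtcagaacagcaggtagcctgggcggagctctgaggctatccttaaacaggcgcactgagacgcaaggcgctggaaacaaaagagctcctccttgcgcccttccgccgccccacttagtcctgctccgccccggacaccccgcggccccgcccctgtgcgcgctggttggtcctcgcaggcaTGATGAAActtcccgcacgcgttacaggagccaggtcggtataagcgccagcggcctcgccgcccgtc

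On the arrays, 32 of the 33 measured members had a lower level on rLCC111 than on BSA, and 1, SLC43A1, had a higher level, where 46.6% of all genes were lower and 46.2% higher. The median log2 difference, rLCC111 minus BSA, was -0.44 over the 33 members and 0.00 over all 18417 genes. Differences ran from -0.96 for CTH to 0.27 for SLC43A1, so no member differed by 2-fold in either direction, as 0.0869% of all genes did downwards and 0.239% upwards. At least 1.2-fold lower were 25 of the 33 (75.8%), where the same was true of 5.89% of all genes, and at least 1.5-fold lower were 9 (27.3%), against 0.543% of all genes. SLC43A1 was the single member at least 1.2-fold higher, against 6.76% of all genes, and none was 1.5-fold higher, against 1.08%. The members were listed with this contrast known, so these shares describe the list and are no evidence about it.

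**Figure D1:**
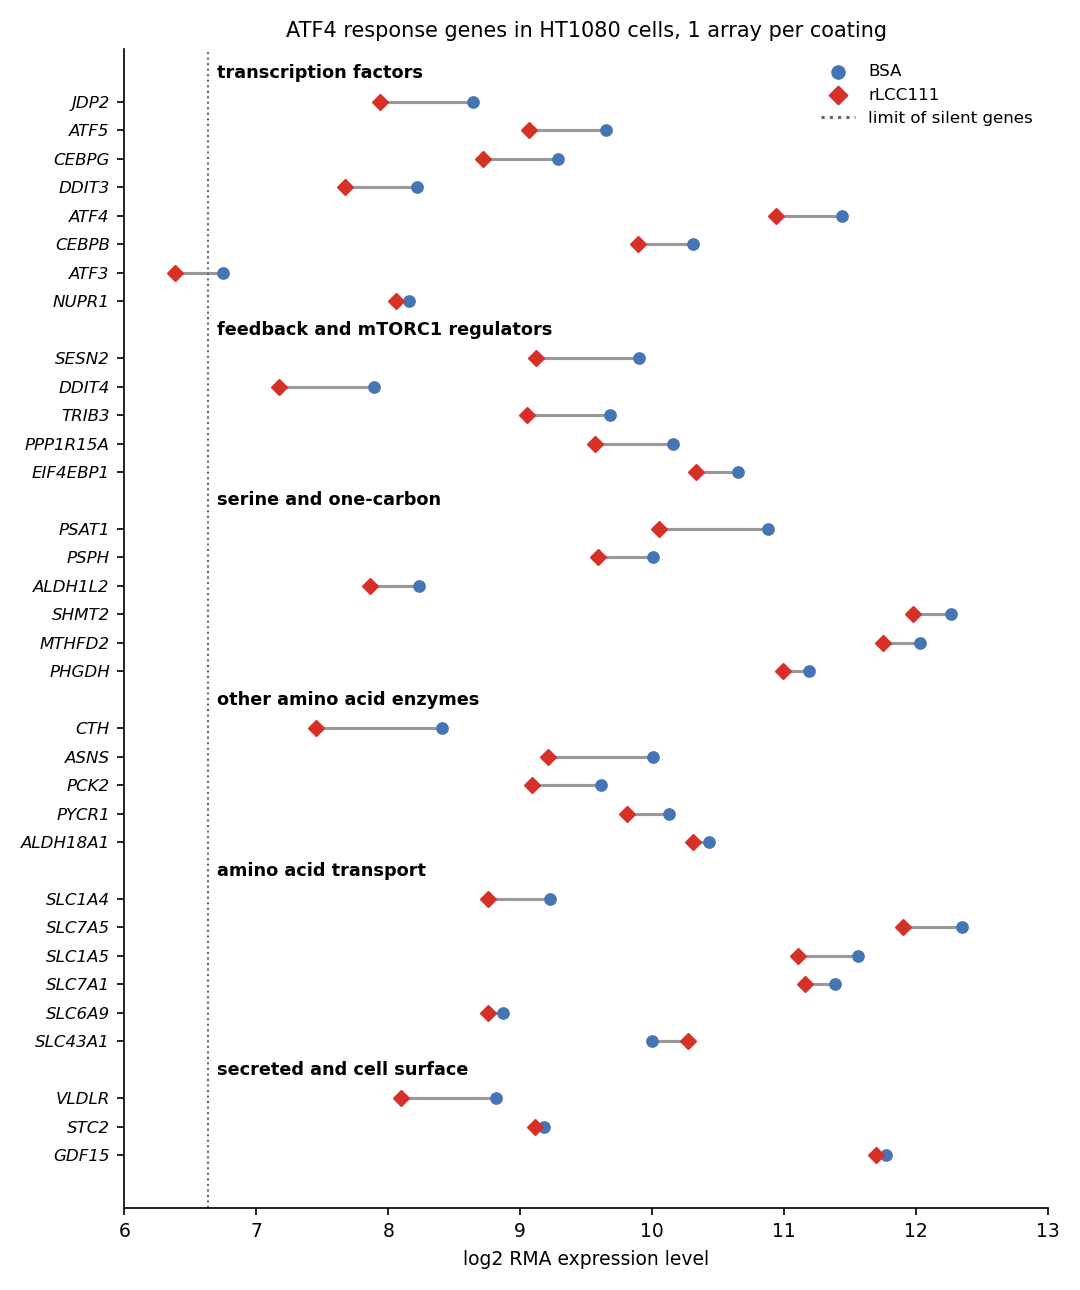
Log2 RMA level (horizontal) of the 33 measured ATF4 response genes on the BSA array (blue circles) and the rLCC111 array (red diamonds), grouped by function and ordered by difference; the dotted line marks the limit of silent genes at 6.63. In every row but that of SLC43A1 the red diamond lies to the left of the blue circle, and the longest bar is that of CTH, from 8.41 to 7.45.

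All 33 measured members were above 6.63 on the brighter array, a limit set at the 95th percentile of 373 olfactory, taste and vomeronasal receptor genes by their mean level. It served as the limit below which a gene was treated as silent. Of the 33 members 32 were above it on both arrays. Among the 12665 genes whose brighter array was above the limit, 7.21% were at least 1.2-fold lower and 0.726% at least 1.5-fold lower, and their median difference was -0.001. The median level of the arrays, over 33297 sequences, was 7.04 on BSA and 7.12 on rLCC111. Of 10 mesenchymal markers 9 were above the limit on the brighter array, where the same was true of 12665 of all 18417 genes. The levels of all 10 ran from 6.60 to 13.08 on BSA and from 6.49 to 13.29 on rLCC111. Of 8 blood markers 4 were above the limit, of 9 epithelial markers 3, of 8 endothelial markers 2 and of 7 HEK-293 or neural markers 4. The median levels of these 4 lists were 6.37, 6.06, 6.29 and 7.03 on BSA and 6.42, 6.20, 6.22 and 6.91 on rLCC111. Single markers were bright, and the highest levels on BSA were 11.52, 8.78, 8.96 and 10.39 in the same order. The part of other cells in the result was not tested. In RNA from a whole well, less mRNA in every cell and fewer cells with much of it cannot be told apart.

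**Figure D2:**
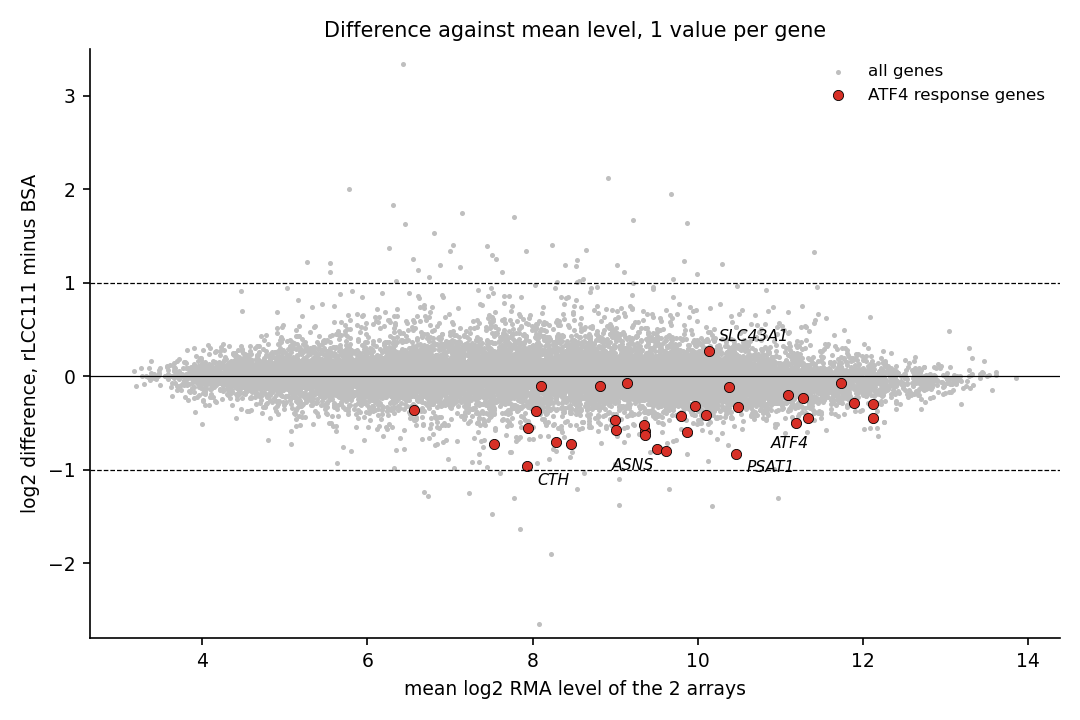
Log2 difference, rLCC111 minus BSA (vertical), against the mean log2 RMA level of the 2 arrays (horizontal) for 18417 genes (grey) and the 33 ATF4 response genes (red); dashed lines mark 2-fold. The red points lie on the lower side at low and high levels alike, between the zero line and the lower dashed line, except for SLC43A1 at 0.27.

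By the sequence that stands for each gene, its brightest, all 8 transcription factors had lower levels on rLCC111, with a median difference of -0.52. ATF4 itself is read by 2 sequences that went opposite ways. The brighter was at 11.44 on BSA and 10.94 on rLCC111, with a fold of 0.708 (rLCC111 over BSA, as all folds here). The other was at 10.78 and 10.90, a fold of 1.09. Because of these opposite differences, the arrays give no single direction for the ATF4 mRNA. The first transcript that the annotation lists differs between the 2 sequences, but which part of the mRNA each reads is not known here.

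JDP2, a leucine zipper repressor that binds AP-1 and ATF sites, differed most among the transcription factors, with 8.64 on BSA and 7.94 on rLCC111, with a fold of 0.614. ATF5, whose translation is controlled much as that of ATF4 is, was at 9.65 and 9.07 (fold 0.669). CEBPG, a dimer partner of ATF4, was at 9.29 and 8.72 (fold 0.673). These 3 genes lay at ranks 56, 102 and 107 from the lowest difference among the 18417 genes. DDIT3, which encodes CHOP, a factor induced in prolonged stress, was at 8.22 and 7.67 (fold 0.683). CEBPB, another C/EBP factor, was at 10.31 and 9.89 (fold 0.748). ATF3, an early stress factor, was dim, at 6.75 on BSA and 6.38 on rLCC111, so its fold of 0.776 rests on signal near the limit of silent genes. NUPR1, a small chromatin protein of the stress response, stood apart from the other 7 with 8.16 and 8.06, a fold of 0.930.

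The 5 regulators that act back on the response or on mTORC1, the kinase complex that couples amino acids to growth, made up the function group with the lowest median, -0.63. SESN2, a leucine sensor that restrains mTORC1, was at 9.90 on BSA and 9.12 on rLCC111, with a fold of 0.582. DDIT4, which restrains mTORC1 through the TSC complex, was at 7.89 and 7.17 (fold 0.606). TRIB3, a pseudokinase that binds ATF4 and holds it back, was at 9.68 and 9.05 (fold 0.647). These 3 genes and PPP1R15A were each at least 1.5-fold lower on rLCC111. PPP1R15A, which encodes GADD34, the subunit that directs a phosphatase to eIF2, was at 10.16 and 9.57 (fold 0.662). EIF4EBP1, a repressor of cap-dependent translation, had the smallest difference of the group, at 10.65 and 10.33 (fold 0.799).

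The 3 enzymes of serine synthesis were all lower, by unequal amounts. PSAT1, the transaminase of the middle step, was at 10.88 on BSA and 10.05 on rLCC111, with a fold of 0.563. PSPH, the phosphatase of the last step, was at 10.01 and 9.59 (fold 0.747), and its second sequence had a fold of 0.85. PHGDH, the dehydrogenase that opens the path, was at 11.19 and 10.99 (fold 0.869). PHGDH was thus the single gene of this group that was less than 1.2-fold lower, while PSAT1 lay at rank 33 from the lowest among all genes. The annotation also ties PHGDH to a sequence shared with another gene, which was left out.

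The 3 mitochondrial enzymes that pass the carbon of serine through folate had differences close to one another. SHMT2, which splits serine into glycine and a folate-bound carbon, was at 12.27 on BSA and 11.98 on rLCC111 (fold 0.814). MTHFD2, which oxidises that carbon, was at 12.03 and 11.75 (fold 0.820), and its second sequence had a fold of 0.746. ALDH1L2, which can release the carbon as carbon dioxide, was at 8.23 and 7.86 (fold 0.774). Over all 6 serine and folate genes the median difference was -0.33.

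Of the other enzymes, CTH had the largest difference of the 33 members. CTH encodes cystathionine gamma-lyase, the last enzyme in the making of cysteine from methionine, and was at 8.41 on BSA and 7.45 on rLCC111, with a fold of 0.512 and rank 21 from the lowest among all genes. ASNS, whose promoter is printed above, was at 10.01 and 9.21, a fold of 0.575 and rank 40. PCK2, the mitochondrial enzyme that makes phosphoenolpyruvate, was at 9.61 and 9.09 (fold 0.698). The enzymes of proline synthesis differed less. PYCR1, of the last step, was at 10.13 and 9.81 (fold 0.801), and ALDH18A1, of the first, was at 10.43 and 10.31 (fold 0.923). Of the 7 genes in this group 5 were measured: for CBS, the enzyme before CTH, the annotation lists a sequence that also carries a further symbol, and no sequence carries GPT2, so neither is given a value.

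Of 6 amino acid transporters 5 had lower levels on rLCC111, with a group median of -0.34, and none was 1.5-fold different. SLC1A4, a carrier of small neutral amino acids such as serine, was at 9.23 on BSA and 8.76 on rLCC111 (fold 0.724). SLC7A5, the light chain of the leucine exchanger LAT1, was at 12.35 and 11.90 (fold 0.732). SLC1A5, the glutamine carrier ASCT2, was at 11.56 and 11.11 (fold 0.736), and its second sequence had a fold of 0.848. These 3 were the transporters at least 1.2-fold lower. SLC7A1, a carrier of arginine and lysine, was at 11.39 and 11.16 (fold 0.851), and SLC6A9, a glycine transporter, at 8.87 and 8.76 (fold 0.928). SLC43A1, the branched-chain carrier LAT3, was at 10.00 and 10.27, a fold of 1.2.

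The remaining 3 members encode secreted or surface proteins. VLDLR, a lipoprotein receptor, was at 8.82 on BSA and 8.10 on rLCC111, with a fold of 0.607 and rank 52 from the lowest. STC2, a secreted glycoprotein, was at 9.18 and 9.11 (fold 0.950), and GDF15, a stress-induced cytokine, at 11.77 and 11.70 (fold 0.951). STC2 and GDF15 thus differed least of all the members and lay well inside the middle 95% of all genes, which ran from -0.37 to 0.42. Members of other groups, such as NUPR1 at -0.10 and PHGDH at -0.20, lay inside that range too.

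Most members lay toward the low end of the ranking, while SLC43A1, at rank 17190, lay toward the other end. The lowest 1% of the 18417 genes held 13 of the 33 members, and the lowest 5% held 25. The 4 members with a TTGCATCA match had a median difference of -0.52, and the 23 measured members whose windows had none had -0.50. By TTNCATCA the order was reversed, with -0.466 for the 7 members with a match and -0.508 for the 20 without. Over the whole table, 134 other genes had a TTGCATCA match in a window, with a median difference of -0.003, and 3.73% of them were at least 1.2-fold lower, against 5.81% of 14078 other genes without the match. For the wider TTNCATCA the order was the other way, with 6.94% of 504 other genes with a match and 5.75% of 13708 without at least 1.2-fold lower, and a median of 0.00 in both.

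**Figure D3:**
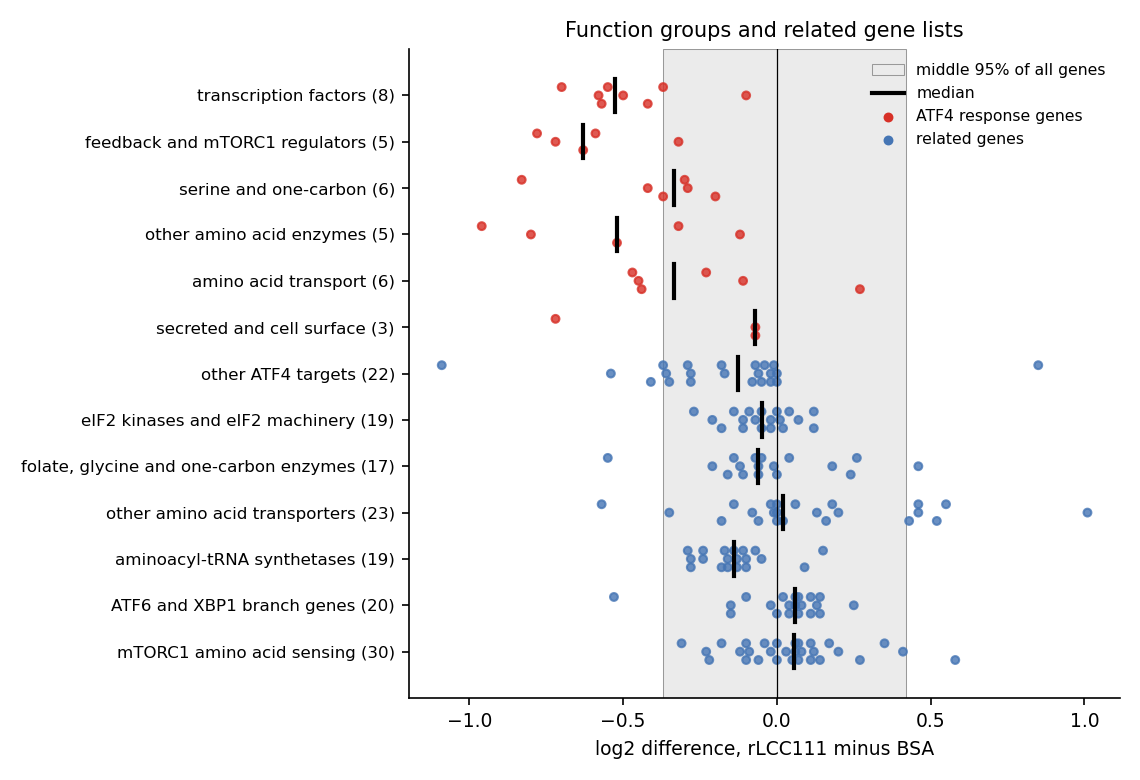
Log2 difference, rLCC111 minus BSA (horizontal), of each gene in the 6 function groups of the ATF4 response genes (red) and in 7 lists of related genes (blue), with the number of genes measured in parentheses, the median of each list as a black bar and the middle 95% of all 18417 genes as a grey band. The red medians run from -0.63 to -0.074 and the blue ones from -0.142 to 0.063, and CHAC1 at -1.09 and SLC1A3 at 1.01 are the outermost points.

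Lists of related genes that were not members had smaller median differences than the -0.44 of the 33 members. The members were listed with this contrast known, so that gap is no evidence about them. Single genes could differ more, as CHAC1 did. Of 22 other targets of ATF4, 19 were lower on rLCC111 (86.4%, against 46.6% of all genes) and 1 higher, with a median of -0.13. At least 1.2-fold lower were 9 (40.9%, against 5.89% of all genes). This list includes CHAC1, which breaks down glutathione, at 9.59 on BSA and 8.5 on rLCC111, with a fold of 0.468. SLC3A2, the heavy chain that LAT1 needs at the membrane, was at 11.43 and 11.02 (fold 0.755), close to the fold of its partner SLC7A5. SLC7A11, the cystine carrier that pairs with the same heavy chain, was at 11.65 and 11.28 (fold 0.774). KLHL24, a ubiquitin ligase adaptor, went the other way, at 8.0 and 8.85, a fold of 1.80.

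Among 19 aminoacyl-tRNA synthetases, which attach amino acids to transfer RNAs and include many ATF4 targets, 17 were lower (89.5%, against 46.6% of all genes) and 2 higher. Their median was -0.14, and 3 genes (15.8%, against 5.89% of all genes) were at least 1.2-fold lower. GARS1, the glycine enzyme, was lowest with a fold of 0.821, and LARS1, the leucine enzyme, highest with 1.11. The windows of 6 of 16 such genes held TTGCATCA (37.5%), a higher share than the 14.3% of the members. The same was true of 3 of 15 other ATF4 targets (20%). The median difference of each of these lists was smaller than that of the members. GARS1 and 3 further synthetases stand on both lists, and without them 15 of 18 other ATF4 targets were lower, with a median of -0.064.

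The mRNAs listed for the steps ahead of ATF4 differed little, but that list leaves out PPP1R15A, a member with a fold of 0.662. Over 19 genes of eIF2 kinases, eIF2 subunits and their partners the median was -0.049. Lower were 12 (63.2%, against 46.6% of all genes) and higher 7 (against 46.2% of all genes). EIF2S2, the beta subunit of eIF2, was the only one at least 1.2-fold different, with a fold of 0.829. It made up 5.26% of the list, where 5.89% of all genes were at least 1.2-fold lower. The highest was OMA1, a mitochondrial protease that can set off this response, with 1.09. Of the kinases, EIF2AK4, or GCN2, which senses uncharged transfer RNA, was at 10.97 on BSA and 10.92 on rLCC111. EIF2AK3, or PERK, which senses endoplasmic reticulum stress, was at 7.98 and 8.05. Phosphorylation of eIF2, by which these kinases act, is not seen by an array.

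The ATF6 and XBP1 branches of the endoplasmic reticulum stress response had a median of 0.063 over 20 genes. Of these 15 were higher (against 46.2% of all genes) and 5 lower (25%, against 46.6% of all genes). HSPA5, the chaperone BiP, was at 12.67 on BSA and 12.71 on rLCC111, with a fold of 1.03. XBP1, a transcription factor of this response, was the single gene at least 1.2-fold lower (5% of the list, against 5.89% of all genes). It was at 10.70 and 10.18 (fold 0.693), and SEL1L, of the degradation machinery, had the highest fold, 1.19. The median of these chaperone and folding genes and that of the 33 members thus had opposite signs on the same 2 arrays. The median of the chaperone and folding genes was 0.08 after lowess and 0.05 after quantile normalization but -0.02 after median centring, while the median of the members was below 0 under each of these scalings.

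In the wider network of folate and glycine enzymes, 17 measured genes had a median of -0.059. Of these 1 was at least 1.2-fold lower (5.88%, against 5.89% of all genes) and 1 higher (against 6.76% of all genes). These were MTHFD2L, a relative of MTHFD2, at 7.14 on BSA and 6.59 on rLCC111 (fold 0.681, below the limit of silent genes on rLCC111), and ALDH1L1, the cytosolic relative of ALDH1L2, at 7.82 and 8.27 (fold 1.37). MTHFD1, the cytosolic enzyme that carries out the matching folate steps, had a fold of 0.918. MTHFD1L, its mitochondrial relative, had 0.963.

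Amino acid transporters outside the list had differences in both directions. Among 23 of them the median was 0.021, which turned to -0.06 after median centring and after quantile normalization. Lower were 8 (34.8%, against 46.6% of all genes) and higher 12 (against 46.2% of all genes). At least 1.2-fold lower were 2 (8.7%, against 5.89% of all genes). At least 1.2-fold higher were 6, where the same was true of 6.76% of all genes. SLC7A7 among the lower genes, and SLC38A3 and SLC1A1 among the higher, were below the limit of silent genes on both arrays. SLC38A1, a glutamine carrier, was at 12.30 on BSA and 11.73 on rLCC111 (fold 0.675). SLC1A3, a glutamate carrier, was at 7.80 and 8.81 (fold 2.01), and SLC7A8, the LAT2 relative of SLC7A5, at 7.23 and 7.77 (fold 1.46). Among 30 genes of amino acid sensing by mTORC1 the median was 0.055, and -0.02 after median centring. SESN3, a relative of SESN2, was higher on rLCC111 with a fold of 1.5 from a level of 6.27, below the limit of silent genes, and MIOS, a subunit of the complex that sestrins bind, was lowest with 0.804.

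**Figure D4:**
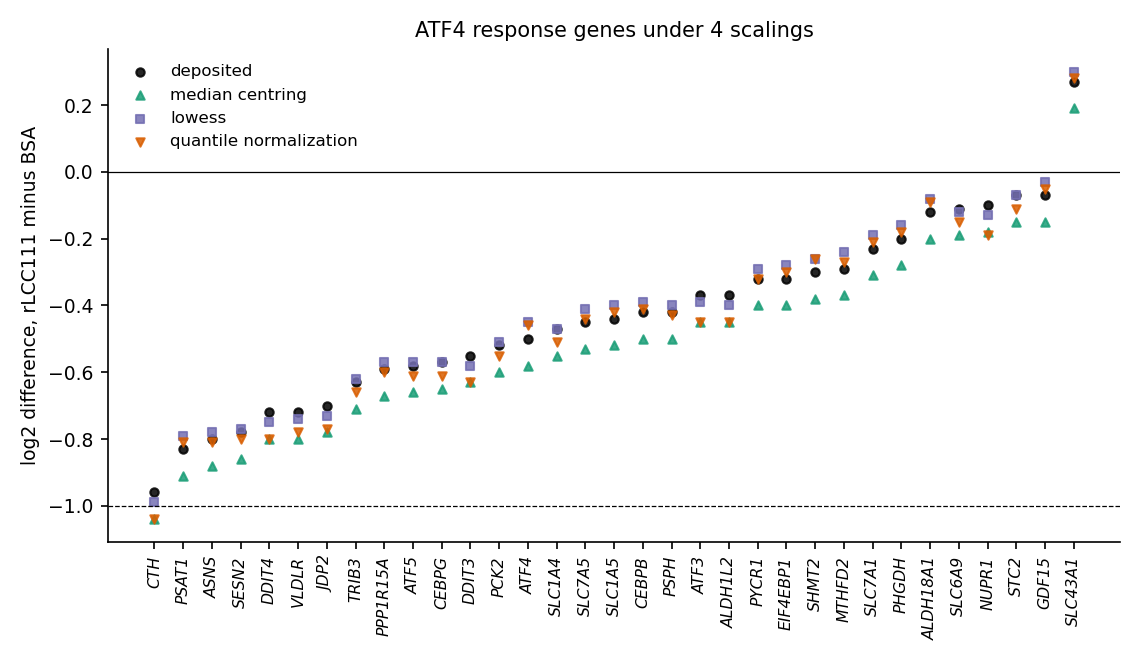
Log2 difference, rLCC111 minus BSA (vertical), of the 33 ATF4 response genes (horizontal, ordered by the deposited values) on the deposited scale and under 3 others, median centring, lowess and quantile normalization; the dashed line marks 2-fold lower. The order of the genes changes little with the scaling, SLC43A1 stays above 0 under all 4, and CTH passes the dashed line under median centring and quantile normalization, at -1.04 in each.

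Of the 33 members 32 were below 0 as deposited, after median centring, after removal of a lowess trend and after quantile normalization. These scalings moved values little beside the members' median, so they could hardly change that count. By the dimmest sequence per gene, an alternative chosen after seeing the data, 31 were below 0. CTH was 2-fold lower under median centring and quantile normalization, each at -1.04, and stayed just short of it under lowess, at -0.99. SLC43A1 ran from 0.19 to 0.30. The scaling moved the median of all genes to -0.079 under median centring, -0.020 under lowess and -0.058 under quantile normalization.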

How the data were processed

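RNA of HT1080 cells on each coating was hybridised to 1 array. The authors ran RMA in Affymetrix Expression Console (version not given in the sources used here) on the scanned arrays and deposited 1 log2 level for each of 33297 sequences, which was used without further scaling. The methods name limma, which was not run because 1 array per coating leaves no spread to estimate. Names came from the array platform's annotation and were updated to the symbols of RefSeq of GRCh38.p14: 19460 carry 1 symbol, 1754 several and 12083 none, and genes were named only from the first kind, by the sequence with the highest mean level. Calls were folds of 1.2, 1.5 and 2, and counting was tested on simulated data. The members and lists were chosen with earlier results of these data known. All members are named; from related lists, genes past 1.5-fold and the largest difference in each direction among genes above the limit. CHAC1's promoter match, SLC3A2, SLC7A11, SLC7A8, MTHFD1, MTHFD1L, HSPA5, EIF2AK3, EIF2AK4 and the comparison of all genes by promoter match were chosen after values were seen. Alternatives were median centring, lowess (span 0.2, 3 iterations), quantile normalization, the mean or the dimmest sequence per gene, and filters on dim genes. Precision is limited by the number of arrays. Python 3.11.15 was used with numpy 2.4.6, pandas 2.3.3, statsmodels 0.14.6 and matplotlib 3.10.9.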

Additional observations from a re-analysis of the deposited data

How the results depend on the processing

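Over all alternatives the median log2 difference of the members ran from -0.52 to -0.37, the count at least 1.2-fold lower from 22 to 27 and the count at least 1.5-fold lower from 8 to 13. After median centring no member (0) was at least 1.2-fold higher, since SLC43A1 moved to 0.19. After median centring and after quantile normalization 1 member, CTH, was at least 2-fold lower. The difference of ATF4 was -0.19 by the mean of its sequences and 0.12 by the dimmer one, an alternative chosen after seeing the data, and the cause was not tested. No paired analysis was possible because each coating has 1 array, and for the same reason no array could be left out.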

Other observations

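On these arrays, 2460 of the 33297 sequences held exactly the same value on BSA and rLCC111, and 1325 of the 18417 genes (7.19%) were given by such a sequence, 379 of them with a level above the limit of silent genes. None of the 33 members was among them (0). Of the 373 sensory receptor genes 4 were at least 1.2-fold lower (1.07%, against 5.89% of all genes) and 24 at least 1.2-fold higher (against 6.76% of all genes). At least 1.5-fold higher were 10 of the 373 (against 1.08% of all genes). At least 2-fold higher were 2 (against 0.239% of all genes), with a highest difference of 1.53. The SD of the differences, 0.18, was taken over all 373 and includes these genes.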
